A study of Mus musculus with 2 samples.

Results

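Of 7610 chromatin boundaries mapped at 5 kb resolution in mouse olfactory sensory neurons, 1016 lay wholly inside introns. A boundary was counted as intronic when its 5 kb bin fell fully inside a protein-coding gene record of GENCODE release M21 on the mouse build GRCm38 and shared no base with an exon of any protein-coding gene. The remaining boundaries were 2493 whose bin overlapped an exon and 4101 whose bin touched no protein-coding gene. The gene record that held an intronic boundary is called its host, and the shortest record was taken for the 16 boundaries held by more than 1.

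The contacts came from in situ Hi-C, an assay that ligates nearby DNA ends within fixed nuclei and reads out which sequences were joined. The labels describe mature olfactory sensory neurons, isolated by FACS from olfactory epithelium; the mice were adult, of mixed sex and of unspecified strain. Every sample was a conditional Ldb1 knockout made with OMP-Cre, a recombinase expressed under the promoter of a mature olfactory neuron gene, and Ldb1 itself is an adaptor that links DNA-binding factors to each other. Contacts of 2 bioreplicates, each of 1000000 cells fixed in 1% formaldehyde and digested with DpnII, were pooled by the submitters into 1 boundary list, so no value below has a replicate error. A control library was not analysed here. Neither the loss of Ldb1 nor the purity of the sort can be read from such a list, and its depth is unknown.

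A boundary is a position that few contacts cross, and it separates neighbouring domains of frequent contact. In mammals, cohesin extrudes loops of chromatin until it meets CTCF, a DNA-binding protein that halts it in an orientation-dependent manner, and boundaries often lie at CTCF sites and at active promoters. A boundary within an intron divides a gene between contact domains. Very long introns are typical of neuronal adhesion, synaptic and channel genes.

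The CTCF core consensus, 12 bases long and searched on either strand, occurred in the bins of 60 intronic boundaries. The 10 strongest of these are shown to compare the matched core and its flanks between hosts, each read 5′ to 3′ on the strand of the motif, with the core in capitals and 25 bases of GRCm38 on either side. The first host, Bcl6, encodes a transcriptional repressor, and Gnrhr encodes the receptor for gonadotropin-releasing hormone. Dlg1 encodes a membrane scaffold and Asic2 an acid-sensing ion channel.
Bcl6, intron 1, chr16:23984338-23984399, plus strand: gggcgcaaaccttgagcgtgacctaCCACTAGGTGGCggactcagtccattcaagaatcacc
Igfbp5, intron 1, chr1:72865981-72866042, plus strand: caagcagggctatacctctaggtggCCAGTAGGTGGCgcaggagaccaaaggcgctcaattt
Cma2, intron 1, chr14:55964068-55964129, plus strand: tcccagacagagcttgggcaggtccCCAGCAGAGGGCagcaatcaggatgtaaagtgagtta
Msrb3, intron 1, chr10:120876351-120876412, minus strand: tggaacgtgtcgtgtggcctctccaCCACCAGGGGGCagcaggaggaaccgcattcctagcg
Gnrhr, intron 1, chr5:86191470-86191531, plus strand: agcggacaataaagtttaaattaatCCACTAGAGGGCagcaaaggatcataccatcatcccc
Anks1b, intron 24, chr10:90690316-90690377, minus strand: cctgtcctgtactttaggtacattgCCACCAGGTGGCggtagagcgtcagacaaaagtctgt
Iqsec1, intron 2, chr6:90819134-90819195, plus strand: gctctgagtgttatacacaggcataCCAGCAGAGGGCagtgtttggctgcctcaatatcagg
Dlg1, intron 5, chr16:31724310-31724371, minus strand: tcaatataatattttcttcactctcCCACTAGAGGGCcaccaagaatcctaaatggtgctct
Gm20388, intron 1, chr8:120078209-120078270, minus strand: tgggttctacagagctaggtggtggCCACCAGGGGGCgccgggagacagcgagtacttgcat
Asic2, intron 4, chr11:80906615-80906676, plus strand: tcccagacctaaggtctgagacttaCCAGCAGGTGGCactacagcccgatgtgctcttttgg

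The 3 weakest intronic boundaries with a match in the bin are shown beside them; they were added after the values had been seen.
Sorcs2, intron 4, chr5:36251222-36251283, plus strand: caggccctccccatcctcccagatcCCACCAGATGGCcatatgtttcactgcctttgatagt
Rnf220, intron 4, chr4:117363671-117363732, plus strand: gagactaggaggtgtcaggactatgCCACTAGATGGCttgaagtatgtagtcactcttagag
Vps13b, intron 19, chr15:35518577-35518638, plus strand: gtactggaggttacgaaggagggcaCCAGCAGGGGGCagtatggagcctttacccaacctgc

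The 10 strong boundaries held 7 distinct cores and the 3 weak ones 3. The boundary strength is a score deposited by the authors, and how it scales with the number of crossing contacts is unknown. This strength ran from 1.13 at Asic2 to 2.76 at Bcl6 in the strong set. In the weak set it was 0.255 at Sorcs2, 0.240 at Rnf220 and 0.232 at Vps13b. Both sets were picked for holding a match, so they do not show how often strong or weak boundaries hold one. A match is a sequence, not a measurement of CTCF binding. The motif lay on the strand of the host gene in 2 of the 10 strong sets and in 1 of the 3 weak ones. Over all 62 matches in the bins of intronic boundaries, 28 lay on the host's strand (45.2%; exact 95% binomial interval 32.5 to 58.3), and within 10 kb 159 of 309 did (51.5%; 45.7 to 57.2). Both intervals include an even split.

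Introns were sparsely populated with boundaries for the space they take up. Intronic boundaries made up 13.4% of the list (exact 95% interval 12.6 to 14.1), whereas 109085 of the 511892 bins of the genome with at most 50% gap bases met the same rule (21.3%). Per 1000 bins there were 9.31 boundaries in introns (exact 95% Poisson interval 8.75 to 9.90), 14.2 outside genes (13.8 to 14.6) and 21.9 in bins with an exon (21.0 to 22.8). Bins with an exon and a transcription start site (TSS) held 37.1 per 1000. Intronic bins thus held 0.627 of the density of all bins. That ratio belongs to bins that are intronic along their whole length: when a bin counted by its midpoint alone, 2552 boundaries were intronic and the ratio was 0.914. Intervals cover counting error only and treat boundaries as independent, which neighbours are not.

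The rule turned on a few bases for some boundaries. The intronic boundary closest to an exon lay 6 bases from it, in Cep128, with a strength of 0.939, and the next ones were in 5830473C10Rik, Ptgis, Chaf1b and Ttc27, with strengths of 0.325, 0.843, 1.21 and 1.71. On the other side, a bin in Prkar1a held 2 exonic bases and a strength of 0.825, and bins in Rmnd5a, Mab21l3, Herc1 and Dgkb held 3 to 8 exonic bases and strengths of 0.463, 1.36, 0.391 and 0.208. In all, 25 intronic boundaries lay within 100 bases of an exon, and 143 boundaries inside genes overlapped at most 100 exonic bases.

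Intronic boundaries had a median strength of 0.464 (25th to 75th percentile 0.305 to 0.821), close to the 0.470 of boundaries outside genes and below the 0.651 of exon-overlapping ones. The deposited strong class, which begins at a score of about 0.5, held 472 of the 1016 (46.5%; 43.4 to 49.6), beside 52.9% of all boundaries. It held 47.5% of the boundaries outside genes (45.9 to 49.0) and 64.3% of those overlapping an exon (62.4 to 66.2). Against all other boundaries the median was lower by 0.0893 (a difference of -0.0893), but with intronic bins taken by midpoint the difference turned to 0.0611.

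**Figure D1:**
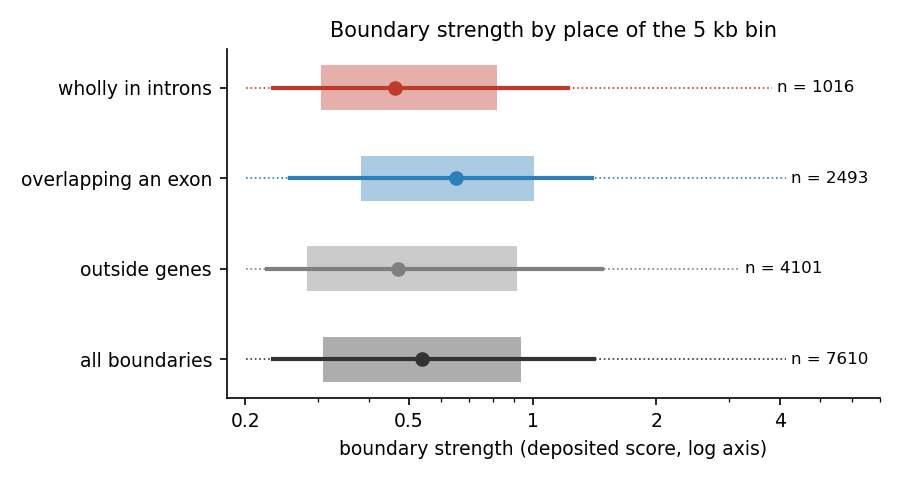
Boundary strength (deposited score, log axis) by the place of the 5 kb bin; dots are medians, boxes the 25th to 75th percentile, thick lines the 10th to 90th and dotted lines the full range. Intronic boundaries (median 0.464) sit beside those outside genes (0.470) and below those overlapping an exon (0.651).

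The strongest intronic boundaries were found in hosts of many kinds. The highest score, 3.82, was at chr11:3195001-3200000 in intron 9 of Drg1, which encodes a GTP-binding protein, and it ranked 2 in the whole list. This bin lay 100 kb from a bin made only of gap bases, 1.54 kb from the TSS of Sfi1 and 2.39 kb from that of Eif4enif1, and it overlapped an exon of the processed pseudogene Fau-ps2. The bin in intron 1 of Bcl6, at chr16:23980001-23985000, followed with 2.76, and it lay 3.85 kb from the gene's own TSS. Lrrc7, which encodes a postsynaptic scaffold, scored 2.35 in its intron 26 of 27, and Gm20388 scored 2.33. Psg16, of the pregnancy-specific glycoprotein family, scored 2.29.

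Pde4d, which encodes a phosphodiesterase that degrades cAMP, scored 2.28 at a bin 763 kb into the gene. Hao1, which encodes a hydroxyacid oxidase of liver, scored 2.25, and Nyap2, which encodes a neuronal adaptor of phosphoinositide 3-kinase, scored 2.24 in its last intron. Oca2, a gene of melanosome pigmentation, also scored 2.24, and the predicted gene Gm3952 scored 2.22. Soft-masked repeats filled 97.2% of the Oca2 bin and 81.1% of the Gm3952 bin, against a median of 25.9% over intronic boundaries, and the part of repeats in these scores was not tested. Of these 10, only Bcl6 had a CTCF consensus in the bin, and Psg16 had 1 within 10 kb. At the low end, Sh3bgrl2 held the lowest score of the whole list, 0.2001, and Ctnna3 and Galntl6 followed among intronic boundaries with 0.2002 and 0.2004.

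On every chromosome of the list at least 1 intronic boundary was strong, and the top score per chromosome ran from 3.82 on chromosome 11 to 1.11 on chromosome 9, in Gadl1. On chromosome X it was 1.69, in the only intron of Gm26992 at chrX:103445001-103450000. That bin overlapped an exon of Tsix, the non-coding antisense transcript of the X-inactivation gene Xist, and it was one of 75 intronic boundaries that overlapped an exon of a non-coding gene or pseudogene (7.38%; 5.85 to 9.17), beside 6.16% of intronic bins. Other top hosts were Tmem232 (2.19, chromosome 17), E330021D16Rik (1.95, chromosome 6), Cma2, a mast cell protease gene (1.94, chromosome 14), and Cngb3, a cone channel subunit gene (1.84, chromosome 4). The rest were Lars, the leucyl-tRNA synthetase gene (1.84, chromosome 18), Akap6 (1.80, chromosome 12), Msrb3 (1.77, chromosome 10), Ostf1 (1.66, chromosome 19), Cdk14 (1.64, chromosome 5) and Slc25a17 (1.26, chromosome 15). The intronic share of a chromosome's boundaries was lowest on chromosome 3 (11.01%, where 18.7% of bins were intronic) and highest on chromosome 16 (17.8%, with 22.6% of bins). Per 1000 intronic bins it was chromosome 14 that was lowest (7.76; 5.62 to 10.5) and chromosome 11 highest (11.2; 8.50 to 14.5), with overlapping intervals. Among intronic boundaries the strong share was lowest on chromosome X, with 16 of 49 (32.7%; 19.9 to 47.5). Chromosome 10 was close to it, with 20 of 57 (35.1%; 22.9 to 48.9). The strong share of all boundaries was not computed per chromosome, so a low value need not be particular to introns.

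The 1016 intronic boundaries fell in 860 different hosts, 9.66% of the 8904 protein-coding genes with at least 1 intronic bin. Hosts were long: the median host length over boundaries was 272 kb, and over intronic bins of the genome it was 282 kb. Density was highest in the shortest hosts, with 52 boundaries in 1902 intronic bins of genes under 25 kb (27.3 per 1000; 20.4 to 35.9). It was 12.8 in hosts of 25 to 50 kb and lay between 7.88 and 9.60 in all longer classes. Of the 52 boundaries in the shortest hosts, 90.4% had a protein-coding TSS within 10 kb. In a gene under 25 kb no bin can lie far from the host's TSS, and the same share over intronic bins of these genes was not computed.

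The strong share was lower in longer hosts. It was 61.5% in hosts under 25 kb (47.0 to 74.7), 56.5% in hosts of 100 to 200 kb (48.7 to 64.0), 31.1% in hosts of 500 to 1000 kb (24.4 to 38.4) and 29.6% in longer ones (22.1 to 38.1). For exon-overlapping boundaries inside genes, the strong share in the same length classes was 68.1%, 60.7%, 63.4% (46.9 to 77.9; n = 41) and 65.4% (44.3 to 82.8; n = 26). The difference between both kinds was not tested. Across the 1016 boundaries, Spearman's rho between strength and host length was -0.28; boundaries in 1 host share its length, and the value is a description. The share with a TSS within 10 kb went down along the length classes, at 90.4%, 57.7%, 38.8%, 20.6%, 7.5%, 1.11% and 2.22%. Host length itself limits how far a bin can lie from the host's TSS, and the same shares over intronic bins were not computed. The share with a CTCF consensus within 10 kb was 32.7% in the shortest hosts, between 25.6% and 27.5% from 25 to 500 kb, then 23.9% and 15.6%. Median GC content was 44.8% in the shortest and 38.6% in the longest hosts. The part of TSSs, CTCF matches and GC content in the strong share was not tested.

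**Figure D2:**
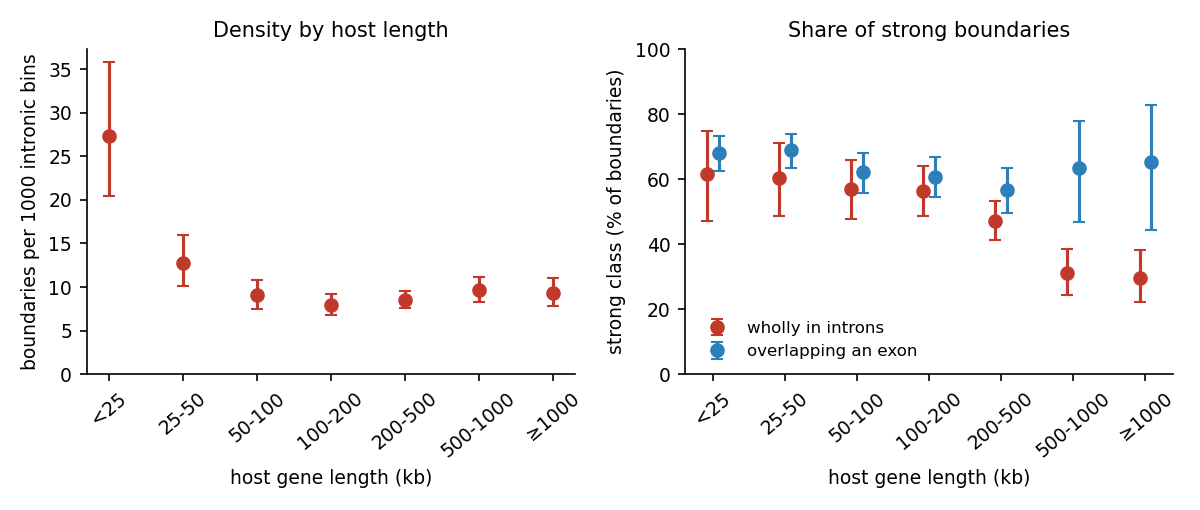
Left, intronic boundaries per 1000 intronic bins by host gene length (kb), with exact 95% Poisson intervals; right, the strong class as a percent of boundaries, with exact 95% binomial intervals, for boundaries wholly in introns and for those overlapping an exon inside a gene. Intronic density is highest under 25 kb (27.3), and the intronic strong share is lowest, 29.6%, in hosts of 1000 kb or more.

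Most hosts held a single intronic boundary: 755 held 1, 73 held 2, 19 held 3 and 13 held 4 or more. The 105 hosts with 2 or more held 261 boundaries (25.7%) and had a median length of 857 kb, against 165 kb for hosts with 1. In those 105 hosts 31.0% of the boundaries were strong (25.5 to 37.0), and in the hosts with 1 it was 51.8% (48.2 to 55.4). Of the 105 hosts, 45 held no strong intronic boundary, 55 held both classes and 5 held strong ones only. Pairs of intronic boundaries that followed each other in 1 host, 156 in number, lay a median of 298 kb apart (range 80 to 1795). For 704 intronic boundaries neither neighbouring boundary lay in the host, for 240 one did and for 72 both did. The nearest other boundary was a median of 210 kb away, and for all boundaries it was 205 kb.

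Of the hosts with 4 or more, those with more or stronger boundaries are named. Pde4d held 5, with strengths of 2.28, 0.891, 0.629, 0.435 and 0.302. Dlgap1, which encodes a postsynaptic scaffold, held 4 at 1.74, 0.494, 0.246 and 0.232. In both hosts 1 boundary stood well above the others. Epha6, an ephrin receptor gene, held 4 at 1.15, 0.476, 0.346 and 0.217, and Dlg2, a synaptic scaffold gene, held 4 at 1.12, 0.609, 0.422 and 0.266. Lsamp, which encodes a limbic adhesion protein, held 4 at 1.00, 0.312, 0.228 and 0.207. Tenm2, a teneurin gene, held 4 between 0.310 and 0.654, and Csmd1 held 4 weak ones between 0.252 and 0.435. In 4 of the 13 hosts no intronic boundary was strong.

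Gm20388 held 8 and Fgfr2, a fibroblast growth factor receptor gene, held 5, but their records are unusual. The Gm20388 record spans 4435 kb and holds 71 other whole protein-coding genes, and the Fgfr2 record spans 2961 kb and holds 29. Boundaries counted as intronic there can lie between other genes, and the 3 farthest from an exon of their host, 1789 to 2040 kb away, were all in Gm20388. In all, 74 hosts with 111 intronic boundaries held another whole protein-coding gene. Among them were Drg1 and Bcl6, the hosts of the 2 highest scores, with 1 such gene each. Without these 74 hosts the strong share was 46.6% (43.3 to 49.9), and 85 hosts held 2 or more. The other 3 of the 5 longest hosts were Ptprd (2271 kb, 3 boundaries), a receptor phosphatase gene, Dmd (2257 kb, 3), the dystrophin gene, and Cntnap2 (2245 kb, 2), an adhesion gene. Of the 59 genes of at least 1000 kb with an intronic bin, 55 hosted an intronic boundary. The other 4 were Astn2, Csmd3, Gpc6 and the predicted gene Gm37240; Csmd3 (1211 kb, 184 intronic bins) and Gpc6 (1051 kb, 199) held no boundary of any kind, and they are named after their values had been seen.

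**Figure D3:**
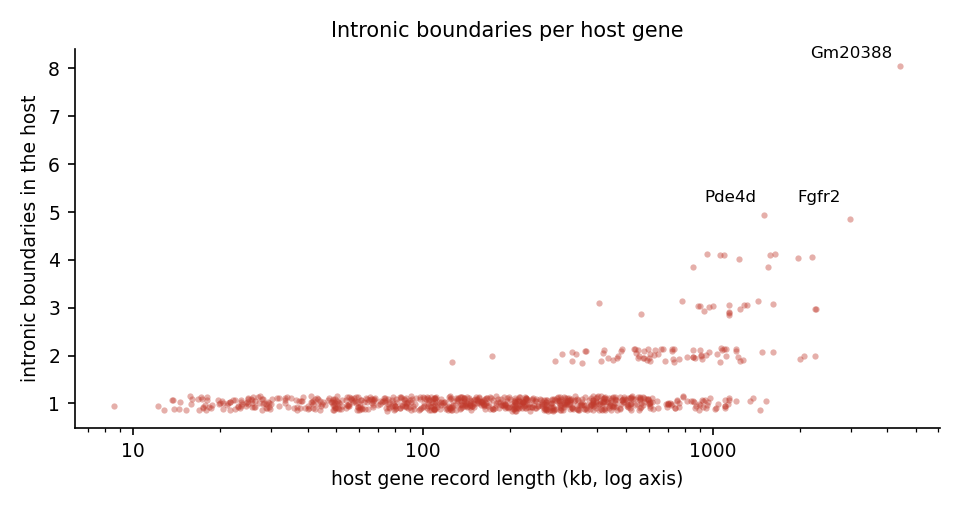
Intronic boundaries per host gene against the length of the host's record (kb, log axis), 1 point per host (860 hosts), spread vertically by a small random shift. Gm20388, with 8, spans 4435 kb and holds other genes; Pde4d and Fgfr2 hold 5 each.

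By its median, position within the host was close to that of introns at large. The median boundary lay 43.6% of the way from the TSS to the end, and the median intronic bin of the genome 43.0%. The first intron held 237 boundaries (23.3%; 20.8 to 26.1), beside 22.3% of intronic bins. The last intron of hosts with several held 13.6 per 1000 bins (10.7 to 16.9). Both edges of the host were denser than its body. Bins whose midpoint lay within 10 kb of the host's TSS held 17.6 per 1000 and those within 10 kb of its end 19.01. Bins 50 to 100 kb from either held 6.82 and 7.22. Farther in, density was 9.30, 9.51 and 9.98 at 100 to 250, 250 to 500 and over 500 kb from the TSS. In the same classes of distance from the end it was 7.69, 9.56 and 9.23. Bins near an edge come from hosts of any length, and bins far in only from long ones. By percent of host length the contrast was smaller. Density was 11.6 in the first 10%, between 7.66 and 9.32 from 10% to 80%, 11.6 from 80% to 90% and 13.2 beyond. The part of host length was not tested. The 55 boundaries near the end had a strong share of 70.9% (57.1 to 82.4), against 53.1% near the TSS (44.7 to 61.3). By distance to the nearest exon of the host, density went down from 13.9 per 1000 under 1 kb to 5.83 at 50 to 100 kb. It was 9.56 beyond 100 kb, a class of 45 boundaries.

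Set beside bins outside genes at the same distance from the nearest protein-coding TSS, intronic bins held fewer boundaries near TSSs and about as many far from them. Within 5 kb, introns held 20.1 boundaries per 1000 bins (16.7 to 24.0) and bins outside genes 32.5 (29.6 to 35.6). At 10 to 25 kb the values were 9.02 (7.51 to 10.7) and 20.7 (19.1 to 22.4), and at 50 to 100 kb 7.43 (6.29 to 8.72) and 15.8 (14.6 to 17.1). Beyond 250 kb they were 9.33 (8.07 to 10.7) and 9.16 (8.57 to 9.77), with overlapping intervals. The strong share of intronic boundaries lay between 54.5% and 56.7% up to 100 kb and then went down to 41.2% at 100 to 250 kb and 23.7% beyond (17.9 to 30.3). Outside genes it went from 64.7% within 5 kb to 14.0% beyond 250 kb (11.8 to 16.4).

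**Figure D4:**
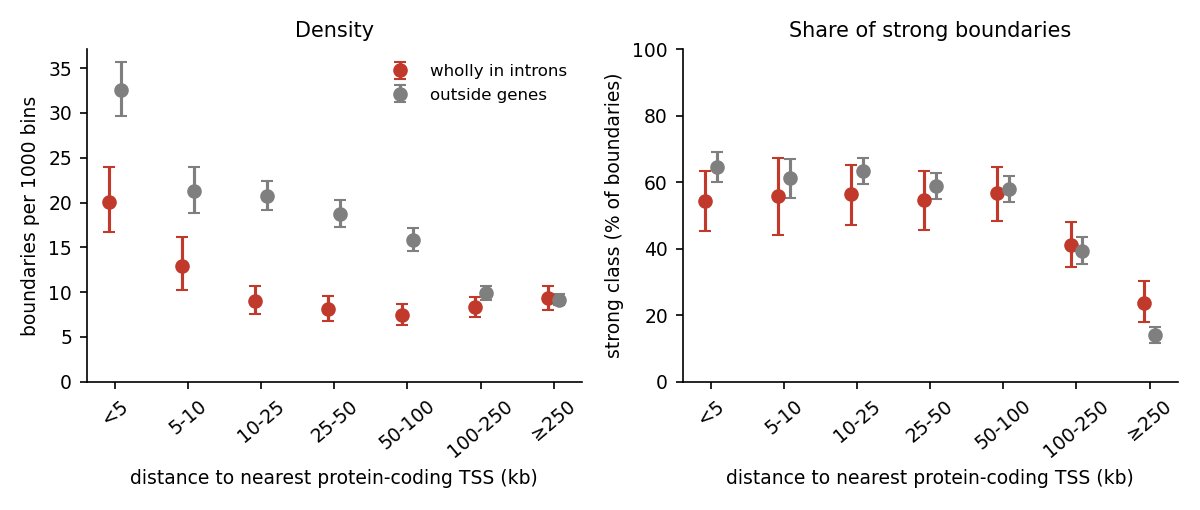
Boundaries per 1000 bins (left) and the strong class as a percent of boundaries (right) by distance from the bin's edge to the nearest protein-coding TSS (kb), for bins wholly in introns and bins outside genes; bars are exact 95% Poisson and binomial intervals. Up to 100 kb the intronic density is below that outside genes; beyond 250 kb both are near 9 per 1000 (9.33 and 9.16).

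A protein-coding TSS lay within 10 kb of 200 intronic boundaries (19.7%; 17.3 to 22.3), beside 31.1% of all boundaries and 11.1% of intronic bins. For 179 of the 200 it included the host's own TSS, and for 21 only that of another gene. A CTCF consensus lay within 10 kb of 255 (25.1%; 22.5 to 27.9), beside 24.4% of all boundaries and 9.86% of intronic bins. In the bin itself it was found in 60 (5.91%; 4.54 to 7.54), beside 6.28% and 2.04%, and in 2.40% of all bins of the genome. CTCF matches were thus about as frequent at intronic boundaries as at boundaries in general. Strong intronic boundaries had one within 10 kb in 33.7% (29.4 to 38.1) and weak ones in 17.6% (14.5 to 21.1).

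Seen from the introns, bins with a CTCF consensus within 10 kb held 23.7 boundaries per 1000 (20.9 to 26.8) and bins without 7.74 (7.20 to 8.31). With 2 or more matches there were 46.2 (33.8 to 61.6). Bins with a TSS within 10 kb and no CTCF match held 14.6 (12.4 to 17.1), and the 87924 bins with neither held 6.93 (6.39 to 7.50). The 48 boundaries with both had a median strength of 0.920, the 207 with only CTCF 0.591 and the 152 with only a TSS 0.483, and for the 609 that lacked both it was 0.404. The last group, 609 of 1016 (59.9%), was the largest, and the same group was the largest among intronic bins, at 87924 of 109085. Of the 609, 239 were strong (39.2%, interval 35.3 to 43.2).

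The strands of CTCF matches were ordered around intronic boundaries. A match was counted as pointing away when it lay left of the bin on the minus strand or right of it on the plus strand, within 50 kb; a match near several boundaries counted for each. Of 736 matches 485 pointed away (65.9%; 62.3 to 69.3), with 246 of 371 on the left and 239 of 365 on the right. The share was 70.5% at strong boundaries (66.0 to 74.7) and 58.9% at weak ones (53.0 to 64.6), and for all boundaries it was 66.5%. With every ambiguous letter of the consensus set to any base, 52.7% of 6419 matches pointed away. In the 5 kb just right of the bin there were 5.12 plus-strand and 2.36 minus-strand matches per 100 bins, and just left of it 2.07 and 3.94. From 60 to 100 kb the means were 1.04 plus-strand and 1.10 minus-strand matches. These means take both sides together, so they cannot show an order that differs by side.

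**Figure D5:**
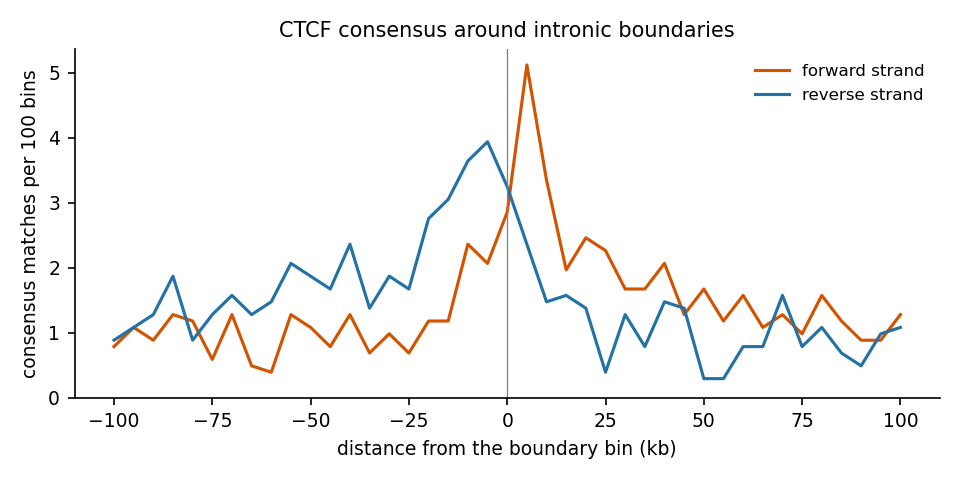
CTCF consensus matches per 100 bins of 5 kb, by strand of the genome (forward, plus; reverse, minus), at distances of up to 100 kb on either side of the 1016 intronic boundaries. Plus-strand matches peak at 5.12 just right of the bin and minus-strand matches at 3.94 just left of it.

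The Ebf consensus TCCCNNGGGA and the Lhx homeodomain core TAATTA, both palindromic, were counted because Ldb1 works with Lhx2 and Ebf factors in olfactory neurons. An Ebf match lay in 7.19% of the intronic boundary bins (5.67 to 8.95), 8.30% of intronic bins and 8.06% of all bins. An Lhx match lay in 82.2% (79.7 to 84.5), 82.3% and 80.9%. Both shares at intronic boundaries lay at or below those of introns at large, within counting error. The cut site GATC of DpnII had a median of 12 copies per bin in both. Only 3 intronic boundary bins overlapped a curated functional element of RefSeq, all enhancers tested in mouse embryos, in Auts2, Hs3st4 and Syn3 (0.295%), beside 0.321% of intronic bins.

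Genes of the mature olfactory neuron were represented among the hosts. Of 20 genes of that list with an intronic bin, 7 hosted 8 intronic boundaries, 3 of them strong (14.3 per 1000 intronic bins; 6.18 to 28.2, with 9.31 over all hosts). The strongest was in intron 2 of Pde1c (0.849), a calcium-dependent phosphodiesterase gene, followed by intron 15 of Ebf2 (0.810), a transcription factor gene. Kirrel3, an adhesion gene of axon sorting, held boundaries of 0.614 and 0.425. Ano2, the chloride channel gene of olfactory transduction, held one of 0.363, and Ncam2, Cadm1 and Cnbd1 held weak ones of 0.321, 0.282 and 0.233. Lists of immature neurons, progenitors, horizontal basal, sustentacular, and immune or vascular cells held no host. These lists have few intronic bins: a count of 0 allows up to 36.9 per 1000 in the list with most of them, 100, and more in the others.

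Ebf2 was the only host among 16 Ldb1 partner and receptor choice genes with an intronic bin (3.57 per 1000; 0.0904 to 19.9), an interval that includes the 9.31 of all introns. Ldb1 and Omp have no intronic bin, Lhx2 has 1 and Ebf1 has 64, and none of them held an intronic boundary. Of 13 cohesin and CTCF genes with an intronic bin, Hdac8, a cohesin deacetylase gene, held one of 0.618 and Stag1, a cohesin subunit gene, one of 0.242 (14.8 per 1000; 1.79 to 53.5).

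The lists of long neuronal genes had many hosts, at a density near that of all introns. Of 58 adhesion genes with an intronic bin, 41 held 83 intronic boundaries (8.87 per 1000; 7.07 to 10.9997), of which 22 were strong. Among them Nrxn3, which encodes a presynaptic adhesion protein, held one of 1.43. Of 56 channel genes 23 held 32, of which 14 were strong (8.07 per 1000; 5.52 to 11.4), led by Cacna1e (1.505), a calcium channel gene, and Kcnip4 (1.42), a potassium channel interactor. Of 36 axon guidance genes 10 held 13, of which 3 were strong (8.20 per 1000; 4.37 to 14.0), led by Sema3d (1.49), a semaphorin gene, and Epha6 (1.15). Median strengths of the 3 lists, 0.389, 0.453 and 0.394, lay below the 0.464 of all intronic boundaries, of which 46.5% were strong. Genes of these lists are long, with median lengths of 889, 395 and 190 kb. With all hosts pooled, genes of these lists included, the strong share was lower in longer hosts. The part of host length in the strengths of the 3 lists was not tested.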

How the data were processed

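In situ Hi-C contacts of both bioreplicates were merged by the submitters into 1 contact matrix, from which a diamond insulation score and boundaries were derived, per the labels. The build, GRCm38, is named in the submitters' processing notes. The deposited list gives each 5 kb bin a class and a strength, which is a score made by the authors' boundary caller. Caller, version and window: not given in the sources used here. Chromosome Y was not analysed here.

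Bins were classed by GENCODE M21. Introns are gaps between merged exons of the host, and host distances run from the bin's midpoint. A feature was at a boundary when in the bin or within 10 kb of its edges. Genome bins with over 50% gap bases were left out, and motifs were searched in GRCm38 (12728 CTCF matches). The code for bin classes and hosts was checked by direct search on a sample of genome bins, and that for motif counts on planted positions. Intervals are exact at 95%. No test was run, since 1 pooled list has no replicates.

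The intronic boundaries, gene lists and rules were chosen with earlier results of these data known. Named were the hosts of the 10 strongest and 3 weakest boundaries, of the strongest per chromosome and of the 3 farthest from an exon. Hosts of the 10 strongest with a CTCF match in the bin, outside chromosome 18, were named too. The rule also named up to 10 hosts with at least 4, the 5 longest and the 2 strongest per list. One gene that this rule names is not reported here. Ldb1, Omp, Ebf1 and Lhx2 were named in any case, and genes at the edge of the intronic rule, in small overlaps and in the mature neuron list were named beyond this rule. Tools were Python 3.11.15 with scipy 1.17.1, matplotlib 3.10.9, pandas 2.3.3 and numpy 2.4.6. Alternatives changed the intronic rule, the boundary class, windows, motif and transcript choice.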

Additional observations from a re-analysis of the deposited data

How the results depend on the processing

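Over 12 results, 103 alternatives were computed. A value counted as unmoved within the 95% interval of the reported one, or, for the count of hosts, within 1.5 times. By this measure 68 did not move, 34 moved and 1 changed sign. No paired analysis was possible because boundaries were called once, on pooled contacts of 1 group; leaving out a replicate was likewise not possible. The median position and its alternatives, 42.8% to 45.3%, did not move.

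Taking bins by midpoint gave an intronic share of 33.5%, a density ratio of 0.914, a strength difference of 0.0611, a strong share of 56.97%, a median host length of 97.7 kb, a TSS within 10 kb in 37.9%, 168 hosts with 2 or more and a nearest boundary at 195 kb. Keeping bins at least 5 kb from any exon gave 7.21%, 0.531, -0.159, 38.8%, 439 kb, 6.38% and 225 kb in the same order without the hosts. Strong boundaries alone gave an intronic share of 11.7%, a ratio of 0.551, host length 184 kb, CTCF within 10 kb in 33.7%, 70.5% of matches pointing away, a TSS in 23.3% and 15 hosts with 2 or more. The intronic share was 12.4% with exons of every biotype barred, 14.2% with exons of protein-coding transcripts only, and 12.1% without hosts that hold another whole gene, an alternative added after seeing the data. The strength difference was -0.00639 against boundaries outside genes and -0.187 against exon-overlapping ones. The first intron share was 32.1% in the host's longest transcript. CTCF matches lay in 5.91% of the bins, within 25 kb of 38.5%, outside repeats near 21.7% and, with ambiguous letters free, near 73.4%, where 52.7% pointed away. A TSS lay within 25 kb of 32.1%, and a start of any transcript within 10 kb of 34.1%.

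Without boundaries within 500 kb of an assembly gap, also added after seeing the data, the share, strength difference and strong share were 13.4%, -0.0846 and 46.5%. The list carries no depth, so whether a host without a boundary lacked one or lacked contacts cannot be told apart.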
